A study of Mus musculus with 10 samples.

Results

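The gene expression of control ear tissue was described from 5 of the 10 Affymetrix Mouse Gene ST 1.0 arrays of the series, those titled as T-Cre conditional Tbx1 heterozygous controls. Each array held RNA of 1 mouse embryo at embryonic day 12.5. The otic vesicle with the periotic mesenchyme around it had been cut out in cold buffered saline, and the left and right ear of an embryo were pooled. Biotin-labelled cRNA came from 300 ng of total RNA, and the labels call the embryos biological replicates. The controls were not wild type. They carried T-Cre, a recombinase driven by regulatory sequence of the T (Brachyury) gene and active in the early mesoderm, and they were conditional heterozygotes for Tbx1, so they share the recombinase and the altered Tbx1 dose. Strain and litter are not given in the sources used here. The other 5 arrays, of conditional Tbx1 knockouts, enter no result below, apart from any normalization that the 10 arrays share.

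The inner ear arises from the otic vesicle, an epithelial sac that forms the cochlea, the vestibular organs and the neurons of the cochleovestibular ganglion. The periotic mesenchyme condenses into the cartilage of the otic capsule and exchanges signals with the epithelium, among them FGF, BMP, WNT, hedgehog and retinoic acid. Tbx1 is a T-box transcription factor needed in both tissues for ear development, and Pou3f4 is a POU factor of the mesenchyme whose loss causes deafness. A block of tissue taken at this stage can also hold hindbrain, pharyngeal arch, muscle, skin, vessels and blood.

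Values are log2 signals, given as mean ± SD over the 5 control arrays (n = 5) unless the arrays are listed one by one. A gene was read from its probe set of highest mean, among probe sets with 1 gene symbol, which gave 19938 genes. Their means ran from 2.56 to 14.31 with a median of 6.99, and a percentile below is a gene's place among them. Signal depends on the probes of a probe set as well as on the RNA, so percentiles rank signals and not numbers of transcripts. In bulk tissue, fewer cells of a type and less RNA per cell cannot be told apart. The background level was set at 5.44, the 95th percentile of 1194 odorant and vomeronasal receptor genes, which serve smell and had a median of 3.76. Above this level in all 5 arrays were 13834 of 19938 genes (69.4%), and 14938 were above it in at least 1 array. Array medians over all probe sets lay between 6.19 and 6.27, and arrays correlated pairwise at 0.993 to 0.996 across genes.

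The strongest signals came from genes of protein synthesis, the cytoskeleton and the embryonic blood. Eef1a1, a translation elongation factor, read 14.12 ± 0.069, and Actb, cytoplasmic actin, read 13.78 ± 0.023. Hbb-y, an embryonic beta-type globin, read 13.60 ± 0.21 and was the number 4 gene by mean signal. Of 71 ribosomal protein genes measured, 26 stood among the 100 strongest genes. The 7SK RNA gene Rn7sk read 13.47 ± 0.13, the chaperone Hspa8 13.19 ± 0.07, the prolyl isomerase Ppia 13.15 ± 0.035 and the mitochondrial gene COX2 13.07 ± 0.14. Rpl10, Rplp0, Rps2, Rpl21 and Rps6 encode ribosomal proteins and read 13.20, 13.05, 13.02, 13.01 and 13.005. Tpt1, Hnrnpk, Tubb5 and Pabpc1 read 13.01, 12.97, 12.97 and 12.96. Imprinted genes and a muscle gene reached the same range. The imprinted gene Mest read 13.07 ± 0.076, the imprinted growth factor gene Igf2 12.95 ± 0.077, and Actc1, the sarcomeric actin of embryonic muscle, 13.02 ± 0.15. The number 1 place fell to Baiap2l1 at 14.31 ± 0.069, but its 3 probe sets disagreed, with means of 14.31, 11.25 and 6.41, so the place belongs to 1 probe set and not to the gene.

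**Figure D1:**
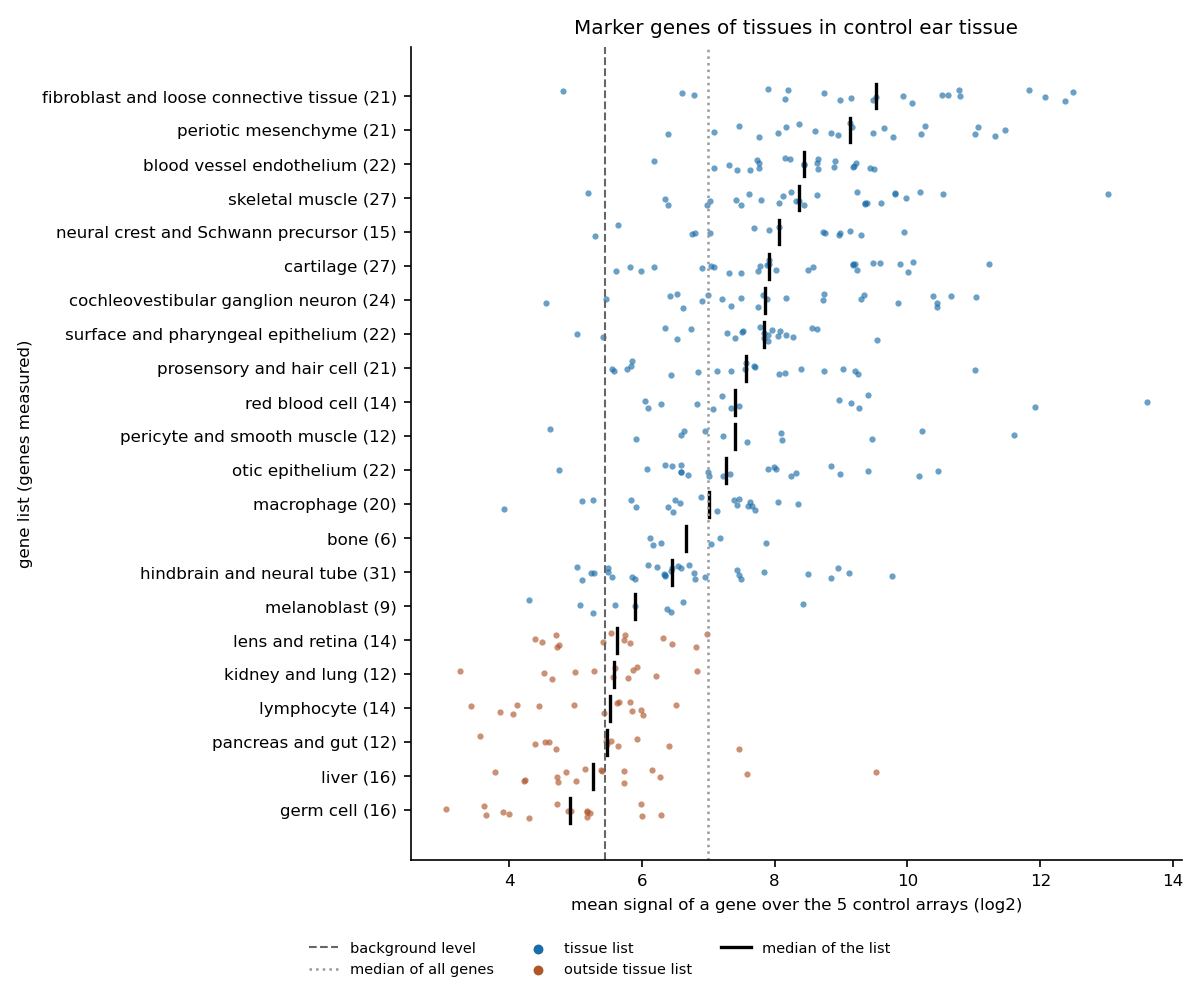
Mean signal (log2, x axis) of each marker gene over the 5 control arrays, 1 row per gene list with the number of genes measured, with the list medians as black bars. The connective tissue and periotic mesenchyme lists have the highest medians among the tissue lists (9.52 and 9.14), and the 6 lists of outside tissues lie around the background level of 5.44.

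Mesenchyme markers were strong in every control. All 21 of 21 measured genes of the periotic mesenchyme list were above background in the 5 arrays, against 69.4% of all genes, and their median percentile was 83.8. The list also holds Fgf9, given below as a gene of the otic epithelium, so not every member marks mesenchyme alone. Twist1, a bHLH factor of mesenchyme, read 11.46 ± 0.17, the homeobox factor Prrx1 11.31 ± 0.052, and the retinoic acid binding protein gene Crabp1 11.06 ± 0.13. Pou3f4 read 7.99, 7.66, 7.81, 7.70 and 7.64 in controls 1 to 5. Its SD was 0.14, against a median of 0.12 among genes above background, and its signal percentile 61.9. Alx1, a homeobox factor of head mesenchyme, read 7.09 ± 0.49 and Tcf21, a bHLH factor of head muscle progenitors and connective tissue, 6.40 ± 0.39, the lowest of the list. The list of fibroblasts and loose connective tissue had a median percentile of 88.6, led by Col1a1, Col1a2 and Col3a1, the main collagens of soft tissue and bone. Dpt, dermatopontin, read 4.81 ± 0.30 and was below background in all 5 arrays.

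Otic epithelium markers were nearly all read above background, at middling signal. The list held 22 measured genes, 21 of them above background in all 5 arrays, against 69.4% of all genes. Their median percentile was 54.0. Oc90, otoconin of the otoconial matrix, gave 10.54, 10.06, 10.41, 9.996 and 9.86 in controls 1 to 5, at signal percentile 94.2. Each array read it in the upper part of the signal range. Sparcl1 read 10.45 ± 0.072 and Dlx5, a homeobox factor of the dorsal vesicle and of the jaw arch, 9.41 ± 0.12. Pax2, a paired box factor of the vesicle, gave 6.48, 6.55, 6.71, 6.73 and 6.97. All 5 values were above background, with an SD of 0.19, at signal percentile 45.6. Eya1, Gata3, Hmx2, Hmx3 and Pax8, all regulators of the vesicle, read 8.85, 8.02, 7.22, 7.01 and 6.08. Cldn8, a tight junction gene, read 4.75 ± 0.056 and stayed below background. Lmx1a was not read by a probe set with 1 symbol and is not analysed here.

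Genes of the prosensory patches and hair cells were read above background throughout, some of them close to it. All 21 measured genes were above background in every array, against 69.4% of all genes (median percentile 58.7). Strong genes of the list included Id2, a bHLH antagonist, at 11.01 ± 0.092, and the cell cycle inhibitor Cdkn1b at 9.26 ± 0.085. Pcp4 read 9.21 ± 0.24, the Notch ligand Jag1 9.04 ± 0.072, and Sox2, which marks the prosensory patch, 8.16 ± 0.25. Among hair cell genes, the myosin gene Myo7a read 6.85 ± 0.46. Pou4f3 and Gfi1, transcription factors of hair cells, read 5.86 ± 0.29 and 5.83 ± 0.10, and the hair bundle myosin gene Myo15 read 5.55 ± 0.06, close to the background level. The means of Pou4f3, Gfi1 and Myo15 lay below 6.23, the 99th percentile of the odorant and vomeronasal receptor genes. They also lay below the germ cell gene Prm2 (6.29), so they do not show that hair cells were present. Atoh1, the bHLH factor that starts the hair cell fate and that the hindbrain's rhombic lip also uses, gave 6.81, 6.17, 5.54, 7.59 and 6.09 in controls 1 to 5. It was high in control 4 and near background in control 3.

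Neuronal genes were well above background. Of 24 genes in the ganglion neuron list, 22 were above it in all arrays, and 10 stood in the top 25% of signal. Gap43, of growing axons, read 11.04 ± 0.30, the neuronal tubulin Tubb3 10.65 ± 0.39, and the neurofilament gene Nefl 10.45 ± 0.32. Neurog1, the bHLH factor that starts the ganglion lineage, gave 6.36, 6.35, 6.88, 6.49 and 6.59 in controls 1 to 5, at signal percentile 43.5. These genes are shared with hindbrain and other neurons, so they do not place the neurons in the ganglion. In the crest list, 14 of 15 genes were above background, led by Fabp7 of glial precursors at 9.94 ± 0.55, the neuregulin receptor Erbb3 at 9.30 ± 0.18 and the integrin Itga4 at 9.14 ± 0.19. Sox10, which marks crest, glia and otic epithelium, read 7.91 ± 0.093. Of 9 pigment cell genes, 5 were above background in all arrays, not far from the 69.4% of all genes. Kit, a receptor that other cells also use, read 8.43 ± 0.091, the pigment genes Pmel and Dct 6.62 ± 0.10 and 6.44 ± 0.24, and Tyr, tyrosinase, 4.30 ± 0.061.

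Cartilage genes ranged from near the top of the signal range to background. Col2a1, the main cartilage collagen, gave 11.22, 11.45, 11.11, 11.30 and 11.05 in controls 1 to 5, and Sox9, the master factor of chondrogenesis, 10.13, 10.27, 10.15, 9.76 and 10.07. They stood at signal percentiles 98.4 and 93.7, with SDs of 0.16 and 0.19, above the median SD of 0.098 among the 3988 genes of highest mean. Col9a1 read 10.01 ± 0.27 and the aggrecan gene Acan 7.92 ± 0.38. Col9a3 read 9.18 ± 0.31 and Cnmd, chondromodulin, 9.23 ± 0.60. Snorc, a proteoglycan gene of differentiated cartilage, read 5.61 ± 0.16, and Col10a1, of hypertrophic cartilage, 5.24 ± 0.16, with 1 array above background. The cartilage list had a median percentile of 64.4. Only 6 of 10 bone genes were measured, with a median percentile of 45.4. Dlx3, which tooth and jaw mesenchyme also use, read 7.86 ± 0.12, the phosphatase genes Alpl 7.18 ± 0.32 and Phospho1 6.12 ± 0.30, and the osteoblast factor Sp7 7.04 ± 0.25.

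Most markers of vessels, blood and muscle were above background. All 22 endothelial genes were above background in each array, against 69.4% of all genes, with a median percentile of 73.3. VE-cadherin, encoded by Cdh5, read 9.50 ± 0.071, the receptor activity modifier Ramp2 9.44 ± 0.16, the VEGF receptor Kdr 9.23 ± 0.096 and Sox17, an arterial factor, 6.18 ± 0.25. Acta2, smooth muscle actin, read 11.61 ± 0.15, Pdgfrb and Notch3 of mural cells 10.22 ± 0.14 and 9.47 ± 0.16, and the pericyte gene Higd1b 4.61 ± 0.12, below background. Among macrophage genes, 17 of 20 were above background, with the scavenger receptor Stab1 at 8.36 ± 0.25, the mannose receptor Mrc1 at 8.05 ± 0.39, F13a1 at 7.71 ± 0.42 and Ms4a7 at 3.92 ± 0.062. Skeletal muscle genes had a median percentile of 71.9, and 26 of 27 were above background. The myogenic factor Myod1 gave 9.90, 9.94, 9.47, 9.91 and 9.81 in controls 1 to 5, at signal percentile 91.3. Acta1, skeletal actin, read 10.53 ± 0.38, the slow troponin Tnnc1 10.19 ± 0.38, and Myf6, a late myogenic factor, 5.19 ± 0.24.

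Neural tube and epithelial genes gave a mixed picture. Of 31 measured genes of hindbrain and neural tube, 23 were above background in all 5 arrays, near the 69.4% of all genes, with a median percentile of 42.5. The strongest were Nes, nestin of neural and muscle progenitors, at 9.76 ± 0.21, Zic2 at 9.12 ± 0.23 and Irx2 at 8.95 ± 0.11. Olig2, the factor of motor neuron progenitors, read 5.02 ± 0.32 and was above background in 1 array. Surface and pharyngeal epithelium had 20 of 22 genes above background. The keratin genes Krt5, Krt8 and Krt14 read 9.55 ± 0.21, 8.64 ± 0.24 and 8.56 ± 0.38, and Pax1 and Pax9 of the pharyngeal pouches 8.27 ± 0.25 and 8.08 ± 0.23. Foxn1, a factor of thymic epithelium and hair, read 5.02 ± 0.13, below background.

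Genes of organs that the block should lack passed the background level less often than genes at large. Over 6 lists (liver, pancreas and gut, lens and retina, germ cell, lymphocyte, kidney and lung), 34 of 84 measured genes were above it in all arrays, 40.5% against 69.4% of all genes, with a median percentile of 26.2. Of the 84, 44 were above background in at least 1 array, and 1 stood in the top 25% of signal. A signal above background therefore does not by itself show that a tissue was in the block. Albumin (Alb) read 3.78 ± 0.023, the germ cell gene Sycp1 3.06 ± 0.091, Scgb1a1 of lung 3.26 ± 0.15, the T cell gene Rag2 3.42 ± 0.17, intestinal Fabp2 3.56 ± 0.06 and retinal Rcvrn 4.39 ± 0.18. The exception in the top 25% was Ttr, transthyretin, at 9.53 ± 2.44, which liver and choroid plexus make. Cdx1, a homeobox factor of the hind body and gut, read 7.47 ± 0.18, transferrin (Trf) 7.58 ± 0.072, and the lens crystallin genes Crybb1 and Crybb2 6.99 ± 0.09 and 6.82 ± 0.11. Aqp2, a kidney water channel, read 6.83 ± 0.16, Rag1 6.52 ± 0.19 and the protamine gene Prm2 6.29 ± 0.06.

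Among 279 transcription factor genes measured, 224 (80.3%) were above background in all arrays, against 69.4% of all genes, and their median percentile was 51.6. The 10 strongest were Twist1 at 11.46, Sox11 at 11.35, Prrx1 at 11.31, Tcf12 at 11.14, Id2 at 11.01, Tead2 at 10.93, Sox4 at 10.71, Tcf4 at 10.61, Tead1 at 10.54 and Tcf3 at 10.41. Tcf3, Tcf4 and Tcf12 encode the E proteins that pair with tissue-specific bHLH factors, and Tead1 and Tead2 the DNA-binding partners of YAP. No factor reached the 100 strongest genes, and 6 of the 279 reached the 500 strongest.

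Tbx1 itself gave 8.89, 9.01, 8.84, 8.23 and 8.59 in controls 1 to 5, or 8.71 ± 0.31, at signal percentile 77.6. Control 4 read it lowest and control 2 highest. Of 15 T-box genes, 8 were above background in all arrays, against 69.4% of all genes. Tbx15, a factor of skeletal and skin mesenchyme, read 9.17 ± 0.083, Mga, a MAX partner with a T-box, 9.08 ± 0.15, Tbx2 8.78 ± 0.22, Tbx3 8.24 ± 0.27 and Tbx18 of periotic mesenchyme 8.17 ± 0.16. Tbx22, of palate and tongue mesenchyme, read 4.78 ± 0.12, below background. The Pax list was led by Pax1, Pax9 and Pax7, the last of muscle and neural progenitors at 7.49 ± 0.11, and ended with Pax4 of the pancreas at 5.14 ± 0.12. Of the Eya and Dach genes, which act from placode to hair cell, Eya3 read 9.26 ± 0.089, Eya4 9.06 ± 0.15 and Dach2 5.02 ± 0.085.

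All 20 Sox genes were above background, against 69.4% of all genes. Sox11 and Sox4 belong to the SoxC group of progenitors, and Sox30, a testis gene, was lowest at 5.65 ± 0.12. Hox signals had their highest median in paralogue groups 1 to 5, but single genes did not follow the order of the clusters. Hoxa3 read 5.99 ± 0.061 and Hoxa5 8.29 ± 0.28, and Hoxb1 read 6.55 ± 0.087, below Hoxb3. The 14 measured genes of paralogue groups 1 to 5 were all above background in every array, with a median of 7.71. Of 11 genes of groups 6 to 9, 9 were above it, with a median of 6.05. Of 12 genes of groups 10 to 13, 2 were above it, with a median of 5.27. Hoxa2, the Hox gene of the second arch and hindbrain, read 8.75 ± 0.27, Hoxd3 8.43 ± 0.085 and Hoxb3 8.41 ± 0.10, while Hoxc10 read 4.66 ± 0.13. The Dlx, Msx and Alx list was wholly above background (21 of 21). Barx1 of arch mesenchyme read 9.22 ± 0.34, and Msx3, of the dorsal neural tube, 6.41 ± 0.36.

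Fox genes ranged from Foxn3 at 9.77 ± 0.074, Foxd1 at 9.66 ± 0.31 and Foxk2 at 9.65 ± 0.028 to the liver factor Foxa3 at 4.66 ± 0.15. Foxc1 and Foxc2, of head mesenchyme, read 9.14 ± 0.28 and 9.48 ± 0.33. Among LIM, POU, GATA and TEAD genes, Isl1, of neurons and prosensory cells, read 8.74 ± 0.44, Tead3 8.67 ± 0.15 and the germline factor Pou5f1 4.36 ± 0.18. Neurod6 was the weakest bHLH gene at 4.56 ± 0.68. The nuclear receptors were led by Nr2f2 and Nr2f1 at 10.26 ± 0.13 and 9.78 ± 0.17 and the thyroid hormone receptor Thra at 9.84 ± 0.21, and ended with Hnf4g of gut and kidney at 4.06 ± 0.12.

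**Figure D2:**
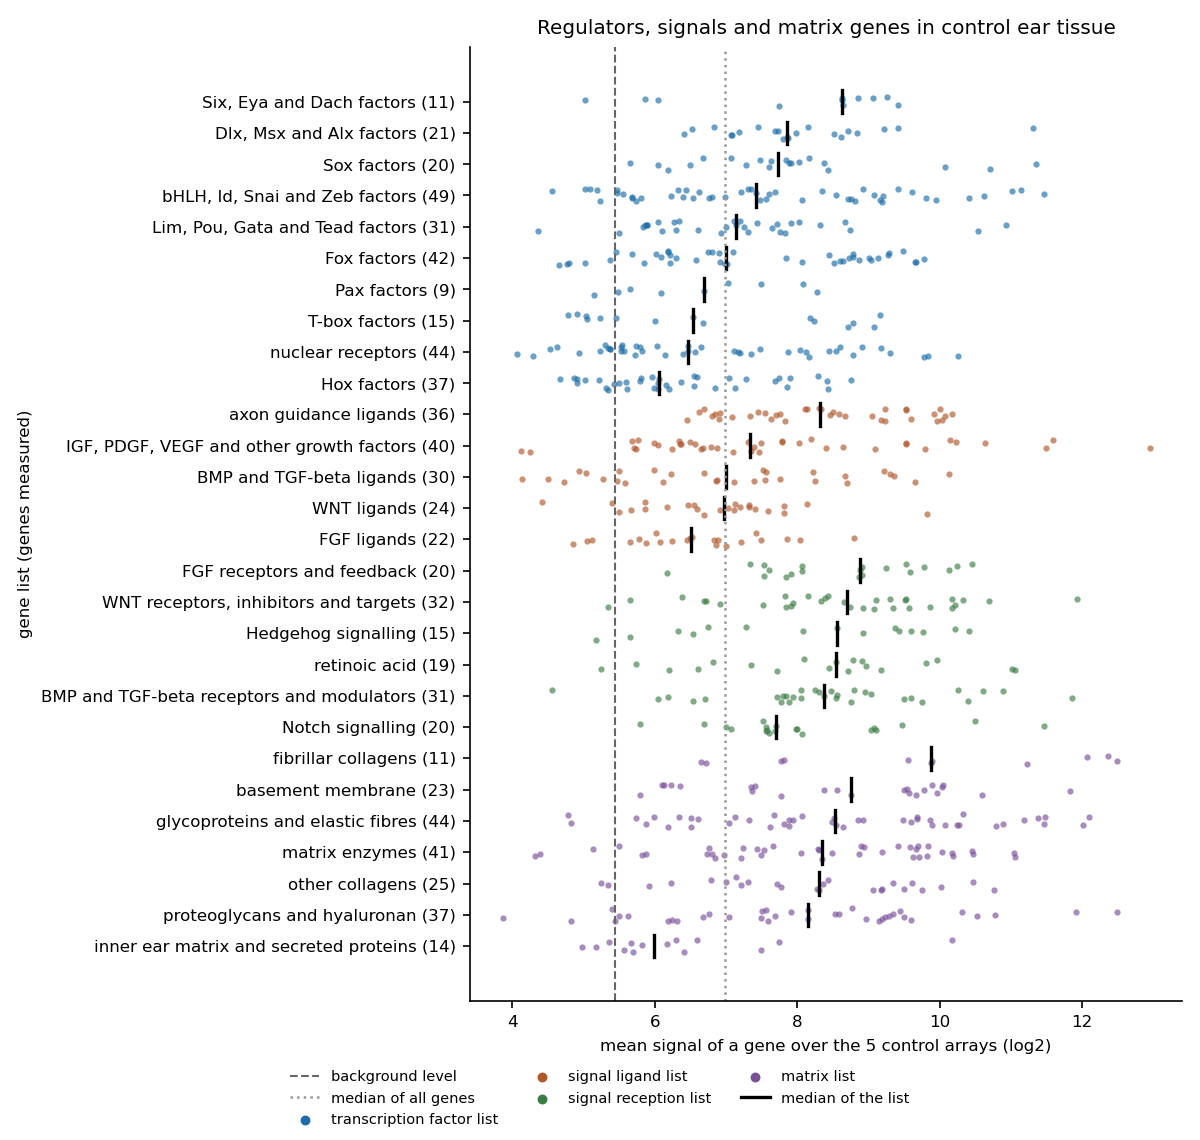
Mean signal (log2, x axis) of each gene over the 5 control arrays for lists of transcription factors, signal ligands, receptors and other pathway genes, and matrix genes, with list medians as black bars. Receptor and pathway lists have medians between 7.70 and 8.88, and the 5 ligand lists between 6.5 and 8.32.

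Pooled over their lists, receptor and pathway genes had a higher median signal than ligands, but single lists overlapped. The axon guidance ligand list (median 8.32) lay above the Notch list (7.70). The Notch and hedgehog lists, counted with the receptors, also hold ligands. The 137 receptor, modulator and pathway genes had a median percentile of 73.0, and the 152 ligand genes one of 53.8. Above background in all arrays were 132 of 137 (96.4%) and 134 of 152 (88.2%), against 69.4% of all genes. These medians do not show in which tissue a gene was read. The 10 strongest ligand genes were Igf2, Mdk (11.58 ± 0.094), Ptn (11.50 ± 0.23), Cxcl14 (10.63 ± 0.15), Pdgfc (10.23 ± 0.08), Sema3a (10.17 ± 0.086), Cxcl12 (10.14 ± 0.10), Bmp1 (10.13 ± 0.15), Efna5 (10.08 ± 0.039) and Sema5a (10.03 ± 0.15). Mdk and Ptn encode heparin-binding growth factors, Cxcl12 and Cxcl14 chemokines, and Sema3a, Sema5a and Efna5 axon guidance cues. Bmp1 is a matrix protease despite its name.

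The FGF ligand list had a lower median than the FGF receptor list. The 22 ligand genes had a median percentile of 43.1, the 20 receptor and feedback genes one of 80.2. Fgf18 of skeletal condensations read 8.80 ± 0.053, Fgf9 of otic epithelium 8.04 ± 0.10, Fgf13, an intracellular member, 7.85 ± 0.22, Fgf10 of the vesicle 6.99 ± 0.089 and Fgf3, an early otic inducer, 5.87 ± 0.14. Fgf6, a muscle gene, was lowest at 4.85 ± 0.081. Fgfr1 read 10.46 ± 0.10, the feedback inhibitor Spred2 10.25 ± 0.089, Flrt2 10.13 ± 0.065, the feedback genes Dusp6 and Spry2 9.77 ± 0.18 and 9.59 ± 0.16, and Spry3 6.17 ± 0.16.

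For BMP and TGF-beta, Gdf10 read 9.65 ± 0.11, Tgfb2 9.35 ± 0.087, Bmp5 9.22 ± 0.24, Bmp4 of the sensory patches 8.25 ± 0.24 and Lefty2, a left-right gene, 4.13 ± 0.17. The follistatin-like gene Fstl1 read 11.85 ± 0.087, the type I receptor Bmpr1a 10.89 ± 0.02, Twsg1 10.60 ± 0.042, the antagonist Nog 7.80 ± 0.12 and Cer1 4.56 ± 0.07, below background. For WNT, Wnt5a, a non-canonical ligand of mesenchyme and cochlea, was highest at 9.82 ± 0.20, then Wnt11 at 8.13 ± 0.14, the enhancer Rspo2 at 7.81 ± 0.15 and, lowest, Wnt8b at 4.41 ± 0.082. The secreted modulator Sfrp2 read 11.92 ± 0.14, the receptor Fzd2 10.69 ± 0.07, the co-receptor Lrp6 10.32 ± 0.095, the target Axin2 8.39 ± 0.12 and Dkk4 5.35 ± 0.23.

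Hedgehog receiving genes were strong, with the co-receptor Gas1 at 10.42 ± 0.19, Smo at 10.22 ± 0.22, and Ptch1, a receptor and target, at 9.77 ± 0.14. Shh, the ligand, read 6.53 ± 0.18, and Cdon was lowest at 5.18 ± 0.20. In the Notch list Dlk1, a non-canonical ligand that is also imprinted, read 11.46 ± 0.21, Notch2 10.49 ± 0.23 and Dll3 5.79 ± 0.18. For retinoic acid, Crabp1 and Crabp2 read 11.06 ± 0.13 and 11.02 ± 0.15, the synthesis enzyme Aldh1a2 9.97 ± 0.37, the degrading enzymes Cyp26b1, Cyp26a1 and Cyp26c1 8.09 ± 0.14, 6.81 ± 0.35 and 6.61 ± 0.18, and Lrat 5.24 ± 0.14. Axon guidance ligands were the strongest ligand list (median percentile 71.0), and all 36 were above background, down to Slit1 at 6.45 ± 0.31.

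Matrix genes had a median percentile of 70.8 over 195 genes, and 178 (91.3%) were above background in all arrays, against 69.4% of all genes. The 10 strongest were Col1a1 (12.49 ± 0.25), Gpc3 (12.49 ± 0.10), Col1a2 (12.37 ± 0.26), Fn1 (12.10 ± 0.13), Col3a1 (12.07 ± 0.28), Igfbp5 (12.01 ± 0.16), Vcan (11.92 ± 0.089), Sparc (11.82 ± 0.11), Mfap2 (11.48 ± 0.085) and Thbs1 (11.47 ± 0.029). They encode fibrillar collagens, the membrane proteoglycan glypican 3, fibronectin, an IGF binding protein, the hyaluronan-binding versican, osteonectin, a microfibril protein and thrombospondin 1. Fibrillar collagens had the highest median percentile of the matrix lists, 92.0, and Col24a1 was their lowest member at 6.64 ± 0.076. Among other collagens, Col26a1 read 10.76 ± 0.11, Col12a1 10.47 ± 0.28 and Col9a1 10.01 ± 0.27.

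In basement membranes, Lamb1 read 10.60 ± 0.23, Nid1 10.05 ± 0.14 and Lama3 5.79 ± 0.094. Omd, osteomodulin of bone, read 3.86 ± 0.18 and was below background in all arrays. The elastic fibre gene Eln read 8.49 ± 0.29, and Ecm2 4.78 ± 0.075. The matrix protease genes Mmp2 and Mmp14 read 11.06 ± 0.15 and 11.05 ± 0.083, Adamts9 10.46 ± 0.018, and Timp4 4.32 ± 0.10.

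Genes of the mature ear were largely weak. The inner ear matrix list had a median percentile of 35.9 over 14 genes. Apart from Oc90, Otor of cartilage and the related Mia read 7.75 ± 0.081 and 7.49 ± 0.35, and Tectb, a tectorial membrane gene, 4.98 ± 0.086. Of 46 deafness and endolymph genes, 29 were above background in all arrays, not far from the 69.4% of all genes, and 11 in none. Their median percentile was 36.9. Slc12a2, the chloride cotransporter of endolymph secretion, read 9.83 ± 0.042, Ccdc50 9.64 ± 0.083 and the connexin Gjb2 9.50 ± 0.17. Slc26a4, pendrin of the endolymphatic duct, read 4.23 ± 0.054, the hair cell channel gene Tmc1 4.38 ± 0.12, prestin (Slc26a5) 4.38 ± 0.13 and Myo3a 3.34 ± 0.069, all below background. Cell cycle genes were strong, with 27 of 30 in the top 25%, led by the inhibitor Cdkn1c at 12.77 ± 0.093 and the cyclins Ccnd2 at 12.39 ± 0.049 and Ccnd1 at 11.25 ± 0.088. Heat shock genes had a median percentile of 97.9, led by Hspa8, Hsp90aa1 at 12.56 ± 0.081 and Hsp90b1 at 12.39 ± 0.12, with Hspa1a, the inducible form, lowest at 6.63 ± 0.23. In the list of hypoxia and glycolysis genes Hk1 read 12.84 ± 0.084, Ldha 11.82 ± 0.079, Aldoa 11.79 ± 0.12 and the hypoxia marker Car9 4.70 ± 0.095, below background. The 2 probe sets of Hk1 had means of 12.84 and 8.73, so its place above Ldha and Aldoa belongs to 1 probe set.

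**Figure D3:**
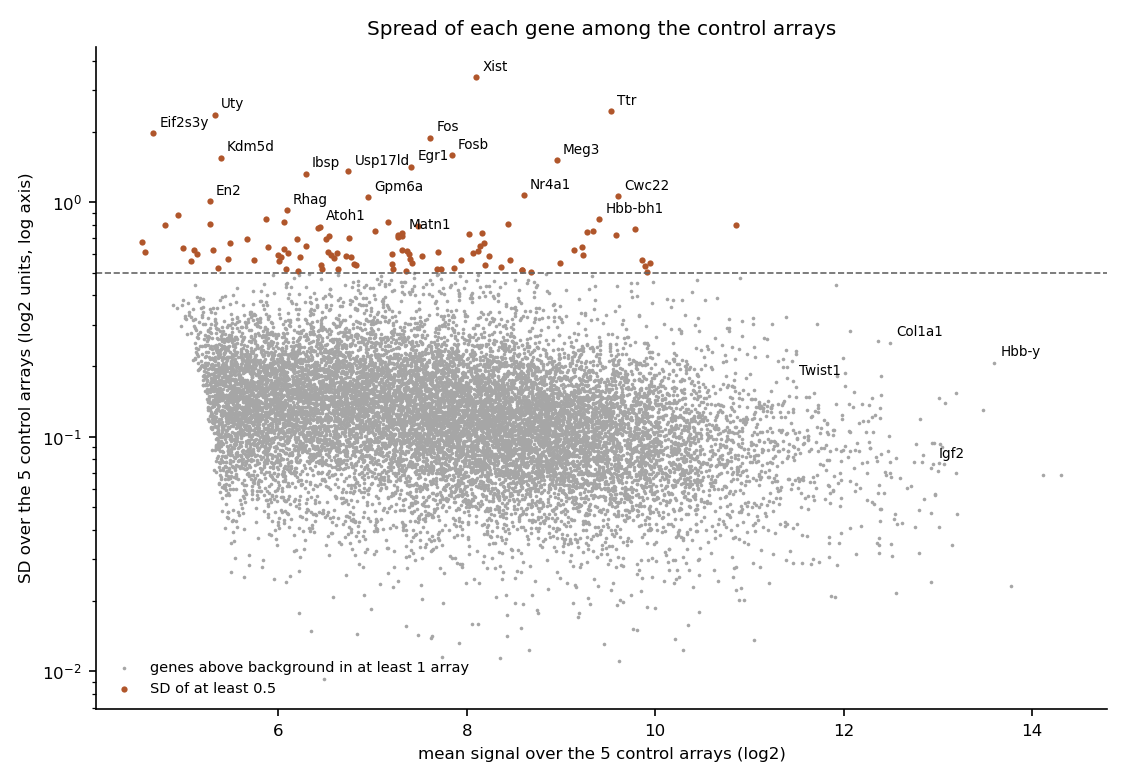
SD over the 5 control arrays (log2 units, log axis) against mean signal (log2) for the 14938 genes above background in at least 1 array, with the 110 genes of SD 0.5 or more in orange above the dashed line. Xist, Ttr, the Y-linked genes and Fos stand farthest up, and the strongest genes, such as Igf2, have small SDs.

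The 5 controls varied little for most genes. The median SD was 0.12 among the 14938 genes above background in at least 1 array, and 92.7% had an SD under 0.25. The SD was at least 0.5 for 110 of them (0.736%), and at least 1 for 15. Of the 110, 97 have names and 13 are predicted, small RNA or RIKEN-type genes. The 3988 genes of highest mean (8.87 and above) had a median SD of 0.098, and the 3987 genes with means of 4.88 to 6.28 had 0.14. Control 4 held the highest value for 34 of the 110 and control 1 for 28, while control 2 held the lowest for 39. Over all genes, the array with the highest or lowest value was not counted. Counts of list members by array given below therefore have no share of all genes beside them. The counts over the 110 variable genes, which include some list members, are given with most of them. Variable genes numbered 26 of 296 tissue markers, 12 of 253 transcription factors, 2 of 141 ligands, 2 of 187 matrix genes and 0 of 135 receptor and pathway genes above background.

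The largest SD of all belonged to Xist, the RNA that silences 1 X chromosome in females. It gave 4.58, 10.81, 10.30, 10.66 and 4.17 in controls 1 to 5. The Y-linked genes Uty, Kdm5d and Eif2s3y were high in controls 1 and 5 and below background in the other 3, as in Uty with 7.94, 3.60, 3.72, 3.48 and 7.88. Srsy, a further Y-linked gene, gave 5.58, 4.75, 4.63, 4.85 and 6.56. Controls 1 and 5 thus read as male and the other 3 as female, and both sexes entered every SD.

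**Figure D4:**
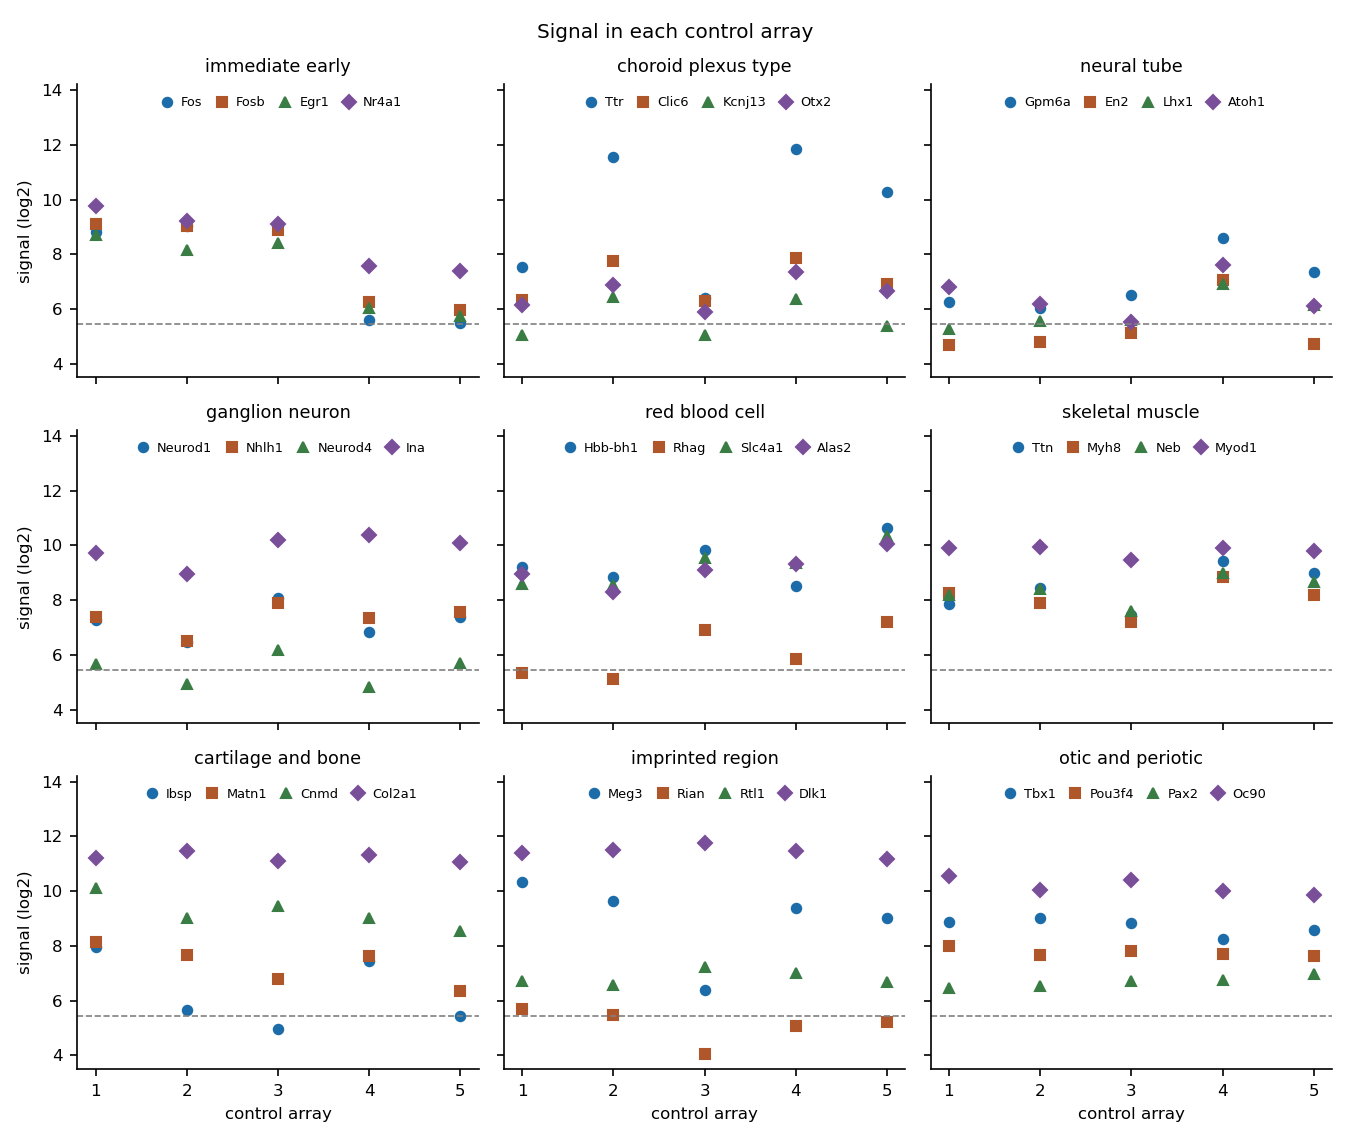
Signal (log2, y axis) in each of the 5 control arrays (x axis) for 4 genes of each of 9 groups, with the background level of 5.44 as a dashed line. Fos reads near 9 in controls 1 to 3 and near background in controls 4 and 5, and Ttr is high in controls 2 and 4.

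Immediate early genes, which cells switch on within minutes of a stimulus, split controls 1 to 3 from controls 4 and 5. Fos gave 8.82, 9.05, 9.08, 5.61 and 5.49 in controls 1 to 5, and Fosb 9.10, 9.02, 8.88, 6.24 and 5.96. Egr1 gave 8.72, 8.15, 8.43, 6.03 and 5.73 and the orphan receptor gene Nr4a1 9.78, 9.21, 9.10, 7.56 and 7.37. For these 4 genes the ranges of the 2 sets of arrays did not overlap, and Fos read just above background in controls 4 and 5. Of 26 list members, 9 had an SD of at least 0.5, against 0.736% of genes above background, and the list mean deviated by 0.42, 0.29, 0.30, -0.50 and -0.51 in controls 1 to 5. Ccn1, a secreted matrix-cell protein of the same kinetics, gave 10.42, 10.30, 10.29, 9.16 and 8.77, and Ccl3, a chemokine outside the list, 7.18, 6.62, 7.09, 5.54 and 5.66. The labels give no batch or order of dissection, so what controls 1 to 3 share was not tested. Jun and Jund were strong, at 9.89 ± 0.53 and 9.55 ± 0.097, and Fosl1 was lowest at 5.39 ± 0.091.

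The sequences just before the start of these genes are shown because the genes moved together across the arrays. RefSeq's promoter table (GRCm38.p6) held 7 of the 9 variable immediate early genes. Below are the 250 bases before the start of the 4 with the largest SD among them, 5′ to 3′ on the gene's strand. Capitals mark TGACG on either strand, which reads CGTCA on the other and is the core of the site bound by CREB. It was found in 5 of the 7 windows, Zfp36 and Jun being without it, and in 17.8% of 32851 such windows of all genes. A match is a run of letters and not a bound site. Fos lies at chr12:85473640-85473889 (plus strand), Fosb at chr7:19310046-19310295 (minus), Nr4a1 at chr15:101266596-101266845 (plus) and Ccn1 at chr3:145649986-145650235 (minus).
Fos: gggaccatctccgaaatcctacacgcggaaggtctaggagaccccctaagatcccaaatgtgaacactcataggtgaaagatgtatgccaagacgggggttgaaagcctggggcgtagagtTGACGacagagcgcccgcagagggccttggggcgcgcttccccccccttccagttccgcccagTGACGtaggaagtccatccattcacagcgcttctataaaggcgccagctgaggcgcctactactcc
Fosb: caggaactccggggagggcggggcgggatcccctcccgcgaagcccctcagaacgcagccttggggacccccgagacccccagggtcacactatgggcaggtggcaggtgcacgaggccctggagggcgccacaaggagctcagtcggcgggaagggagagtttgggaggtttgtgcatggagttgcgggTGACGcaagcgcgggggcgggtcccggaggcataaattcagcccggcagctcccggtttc
Nr4a1: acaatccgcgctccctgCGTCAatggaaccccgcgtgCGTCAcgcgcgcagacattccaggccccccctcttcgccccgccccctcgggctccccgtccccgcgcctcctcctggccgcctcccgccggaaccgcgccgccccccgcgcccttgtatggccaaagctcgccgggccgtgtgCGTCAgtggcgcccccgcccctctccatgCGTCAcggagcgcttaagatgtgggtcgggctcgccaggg
Ccn1: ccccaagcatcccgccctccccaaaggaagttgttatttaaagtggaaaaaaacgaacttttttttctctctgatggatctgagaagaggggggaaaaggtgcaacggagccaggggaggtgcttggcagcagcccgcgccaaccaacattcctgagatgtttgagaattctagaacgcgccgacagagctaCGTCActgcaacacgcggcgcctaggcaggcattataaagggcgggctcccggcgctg

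The Fos window holds 2 matches, which begin 129 and 66 bases before the start. The Nr4a1 window holds 4, and those of Fosb and Ccn1 hold 1 each, 60 and 58 bases before the start. Dusp1, a phosphatase gene that dampens MAP kinases, gave 9.72, 9.71, 9.66, 8.55 and 8.49 in controls 1 to 5, and its window holds 3 matches, of which 2 overlap. Zfp36, an RNA-destabilizing factor whose window holds none, gave 7.97, 7.71, 7.78, 6.68 and 6.79, and Jun 10.23, 10.17, 10.41, 9.33 and 9.29. These genes read higher in controls 1 to 3 than in controls 4 and 5, and they were picked for their spread over the arrays. The order within controls 1 to 3 differed between genes. Whether the match bears on the split was not tested.

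**Figure D5:**
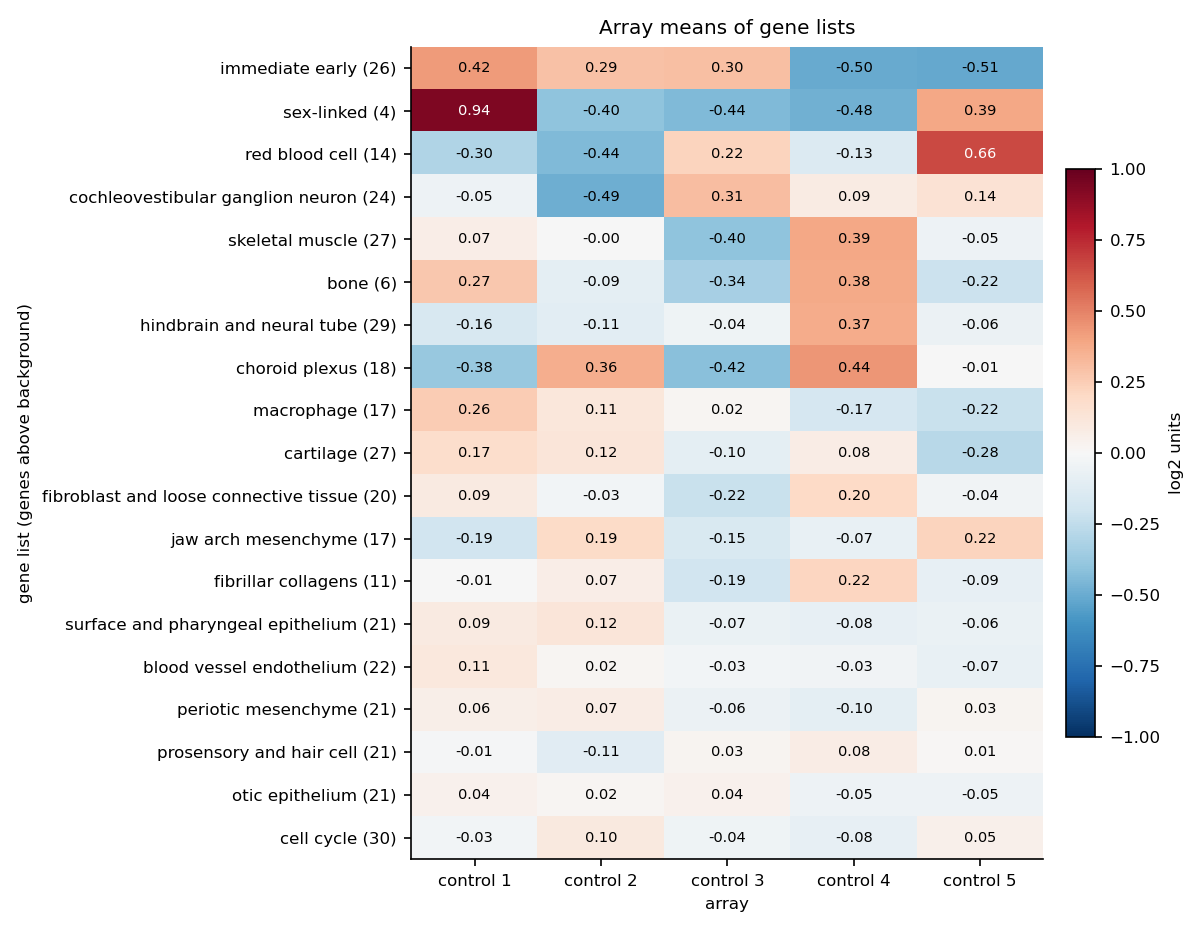
Mean deviation (log2 units, colour and number) of the genes of each list from their own means, for each of the 5 control arrays, with the number of genes above background. The immediate early, sex-linked and red blood cell rows vary most, and the otic epithelium row stays within 0.1 of 0.

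Ttr had the second-largest SD of all genes. It gave 7.54, 11.57, 6.41, 11.86 and 10.26 in controls 1 to 5, high in controls 2 and 4, intermediate in control 5 and low in controls 1 and 3. In the head of the embryo Ttr is made by the choroid plexus of the brain ventricles. A list of choroid plexus genes was then looked up, so it was chosen after the values were seen. Clic6, an intracellular chloride channel protein, gave 6.33, 7.76, 6.28, 7.86 and 6.91, the potassium channel gene Kcnj13 5.06, 6.45, 5.07, 6.38 and 5.37 and Kcne2 5.19, 6.65, 5.63, 6.44 and 6.08. Otx2, a homeobox factor of choroid plexus, forebrain and otic vesicle, gave 6.15, 6.87, 5.90, 7.35 and 6.65. Slc4a5, Slc4a10 and Htr2c had the same high arrays, controls 2 and 4. Of 18 list members above background in some array, 8 had an SD of at least 0.5, Ttr among them, against 0.736% of genes above background. The spread of Ttr led to the list, so this count is a description and lends no support. Of the 18, 7 had their highest value in control 2 and 8 in control 4. Among the 110 variable genes, control 2 was highest for 10 and control 4 for 34. Others of the list did not share the pattern, such as Aqp1 at 7.86 ± 0.28 and Sostdc1 at 8.88 ± 0.18. The liver genes Alb, Afp and Ahsg were below background in all arrays, at 3.78 ± 0.023, 4.72 ± 0.088 and 4.73 ± 0.18. Other liver genes were not. Of 16 measured, 6 were above background in all arrays, Ttr among them. Trf read 7.58 ± 0.072 and Apoa2 6.27 ± 0.21. Which tissue gave the Ttr signal was not tested.

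Control 4 stood out for genes of the neural tube. Gpm6a, a neuronal membrane glycoprotein, gave 6.25, 6.03, 6.52, 8.61 and 7.35 in controls 1 to 5. En2, a homeobox factor of the midbrain-hindbrain border, gave 4.68, 4.81, 5.12, 7.05 and 4.71 and was above background only in control 4. Lhx1, a LIM factor of interneurons, gave 5.27, 5.55, 5.59, 6.90 and 6.15, and the related Lhx5 5.46, 5.83, 6.04, 7.09 and 6.06. Control 4 was the highest array for 18 of 29 genes of the list above background, and the list means were -0.16, -0.11, -0.044, 0.37 and -0.06. Among the 110 variable genes control 4 was highest for 34. With the median of members in place of the mean, the span of this list over the arrays changed by over 1.5 times. Outside the list, Dcc, a netrin receptor, gave 7.16, 6.82, 6.95, 8.75 and 7.74, Igfbpl1 6.75, 6.74, 7.13, 8.53 and 7.41 and Fgf15, of the hindbrain, 7.31, 6.92, 7.14, 8.35 and 7.36. The rhombic lip factor Olig3 gave 6.33, 5.89, 5.65, 7.17 and 6.11, with the same high array as Atoh1. How much tissue of the neural tube each block held was not measured.

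Control 2 stood lowest for ganglion and other neuron genes. It was the lowest array for 21 of 24 members, and control 3 the highest for 15. Among the 110 variable genes, control 2 was lowest for 39 and control 3 highest for 13. The list means were -0.052, -0.49, 0.31, 0.086 and 0.14 in controls 1 to 5. Neurod1, a bHLH factor of new neurons, gave 7.27, 6.49, 8.09, 6.84 and 7.36 and Nhlh1 7.39, 6.52, 7.91, 7.36 and 7.56. The intermediate filament gene Ina gave 9.71, 8.94, 10.19, 10.37 and 10.08, and Fabp7 of glia 9.95, 9.03, 10.40, 10.34 and 9.99. In the prosensory list control 2 deviated by -0.11.

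Red blood cell genes were highest in control 5, for 13 of 14 members, and lowest in control 2 for 10. Among the 110 variable genes, control 5 was highest for 25 and control 2 lowest for 39. The list means were -0.30, -0.44, 0.22, -0.13 and 0.66. Hba-x, the embryonic alpha-type globin, gave 11.48, 11.66, 12.11, 11.73 and 12.60 and Gata1, the factor of the red cell lineage, 6.05 ± 0.21. Hbb-bh1, an embryonic globin, gave 9.22, 8.85, 9.84, 8.5 and 10.64 in controls 1 to 5, Slc4a1, the anion exchanger of red cells, 8.59, 8.55, 9.52, 9.36 and 10.35, Rhag 5.35, 5.13, 6.89, 5.85 and 7.21 and Alas2, of haem synthesis, 8.94, 8.31, 9.11, 9.31 and 10.04. Control 5 read the highest for each of them. Hbb-y, near the top of the signal range, gave 13.53, 13.29, 13.61, 13.74 and 13.83, with a smaller SD of 0.21. Genes outside the list had the same highest array. Kel, of a blood group antigen, gave 6.34, 5.99, 7.02, 6.58 and 7.80, and Rhd, of another, 5.95, 6.01, 6.63, 6.38 and 7.28. Car2, carbonic anhydrase, gave 7.90, 7.48, 8.47, 8.28 and 9.05, and the claudin gene Cldn13 5.07, 5.26, 6.21, 5.61 and 7.17. The adult globins share probe sets with several symbols. One such set for Hba-a1 and Hba-a2 gave 13.16, 13.25, 13.36, 13.64 and 13.84.

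Control 3 was low for muscle, vessel wall and connective tissue. Of 27 muscle genes, 23 had their lowest value in control 3 and 21 their highest in control 4, with list means of -0.40 and 0.39. Ttn, titin, gave 7.86, 8.44, 7.45, 9.43 and 8.99 in controls 1 to 5, Myh8, the perinatal myosin, 8.25, 7.89, 7.18, 8.84 and 8.19 and Neb, nebulin, 8.17, 8.41, 7.59, 8.99 and 8.67. Myod1 and Myog, the factors upstream, varied less, with SDs of 0.19 and 0.19. Of 11 pericyte and smooth muscle genes, 10 were lowest in control 3, as were 16 of 23 basement membrane genes and 21 of 32 WNT receptor and target genes. The list means of the last 3 in control 3 were -0.21, -0.19 and -0.12. The share of all genes that read lowest in control 3 was not counted, and it was lowest for 26 of the 110 variable genes. Col1a1 gave 12.43, 12.52, 12.12, 12.81 and 12.57 and Col3a1 12.00, 12.08, 11.69, 12.48 and 12.11. Aspn, a small proteoglycan of tendon and periosteum, gave 8.63, 7.89, 7.22, 9.13 and 7.91, low in control 3 and high in control 4.

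Cartilage genes were lowest in control 5 for 18 of 27 members and highest in control 1 for 13. Among the 110 variable genes, control 5 was lowest for 12 and control 1 highest for 28. Matn1, a matrilin of maturing cartilage, gave 8.13, 7.68, 6.79, 7.62 and 6.36 and Cnmd 10.12, 9.03, 9.47, 9.02 and 8.53. Ibsp, bone sialoprotein, gave 7.94, 5.64, 4.96, 7.46 and 5.46, high in controls 1 and 4 and near or below background in the other 3. Sp7 gave 6.97, 7.25, 6.70, 7.32 and 6.94, with a smaller spread. Macrophage genes were highest in control 1 for 9 of 17, with list means of 0.26, 0.11, 0.022, -0.17 and -0.22.

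Regional factors also differed between embryos. Hoxb9 gave 6.78, 6.89, 6.77, 7.47 and 8.47, highest in control 5, and Hoxc5 7.59, 8.26, 6.77, 8.24 and 7.59. Tbx5, a factor of the forelimb and heart, gave 6.76, 7.03, 5.30, 7.02 and 6.59 and was below background only in control 3. Jaw arch genes, a list chosen after the values were seen, were lowest in control 1 for 8 of 17 members, with list means of -0.19, 0.19, -0.15, -0.071 and 0.22. Among the 110 variable genes control 1 was lowest for 19. Pitx1 gave 8.43, 9.34, 8.21, 9.0 and 9.21 and the LIM factor Lhx8 7.01, 8.05, 7.5, 7.90 and 8.15. Both were lower in controls 1 and 3 than in the other 3.

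Variable were 2 of 141 ligand genes, 2 of 187 matrix genes and 0 of 135 receptor and pathway genes above background. The share over all genes above background was 0.736%, so these counts do not set the lists apart. After Ccn1 and Fgf15, the most variable ligand genes were Fgf14 at 5.05 ± 0.34, Wnt1, of the dorsal neural tube, at 5.50 ± 0.33 and Fgf7, of mesenchyme, at 7.21 ± 0.32. Wnt1 gave 4.95, 5.46, 5.75, 5.77 and 5.56 in controls 1 to 5, lowest in control 1. In WNT reception the widest were the inhibitor Wif1 at 7.84 ± 0.34 and Fzd6 at 8.43 ± 0.31. Of the retinoic acid genes, Aldh1a2 gave 10.53, 9.85, 9.81, 9.54 and 10.10. Cyp26a1 gave 7.13, 7.16, 6.87, 6.5 and 6.39, lower in controls 4 and 5. The antagonist Fst read 7.88 ± 0.23, the hedgehog inhibitor Hhip 6.74 ± 0.20 and the Notch target Hes5 7.69 ± 0.25. After Aspn and Matn1, the most variable matrix genes were Ncan and Reln, both of neural tissue, at 7.69 ± 0.49 and 7.05 ± 0.47, and Matn4 of cartilage at 8.51 ± 0.47. Ncan gave 7.28, 7.14, 7.69, 8.33 and 8.01 and Reln 6.69, 6.70, 6.73, 7.48 and 7.63. Col6a3, of soft connective tissue, gave 9.74, 9.79, 9.17, 10.29 and 9.75. Among Pax genes Pax3, of neural tube, crest and muscle progenitors, was widest at 7.02 ± 0.38, and in the hair cell list Myo7a followed Atoh1 with 6.14, 6.62, 7.10, 7.24 and 7.14.

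Control 3 read lowest for some genes of an imprinted region, most widely for Meg3. Meg3, a maternally expressed long RNA, gave 10.33, 9.65, 6.39, 9.38 and 9.02 in controls 1 to 5. Rian, another maternal RNA of the same region of chromosome 12, gave 5.69, 5.47, 4.07, 5.09 and 5.22. Control 3 read both lowest, and no other array of Meg3 read below 9.02. Rian was above background in 2 arrays only. Neither gene met the rule for 1 control standing apart that is used for the flagged results below. Of the paternally expressed neighbours, Dlk1 gave 11.39, 11.50, 11.76, 11.45 and 11.18 and Rtl1 6.72, 6.58, 7.24, 7.01 and 6.68, both highest in control 3. Dio3 gave 5.89, 6.07, 5.86, 5.92 and 5.91, highest in control 2 and, by a small margin, lowest in control 3.

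Some of the most variable genes belonged to none of these groups. Usp17ld, a deubiquitinase gene of a repeated family, gave 8.98, 6.2, 5.96, 6.98 and 5.59 in controls 1 to 5, highest in control 1. Cwc22, a splicing factor, gave 10.89, 8.71, 10.61, 8.82 and 8.98, high in controls 1 and 3. Of its 8 probe sets, 7 held identical values and count as 1 measurement, and the eighth gave 8.12, 7.16, 8.31, 7.18 and 7.19, with the same 2 high arrays. Usp17ld is a member of a family of near copies, so its reading is uncertain.

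Lists differed in how far their array means spread. The array means of the otic epithelium list spanned 0.093 and those of the periotic mesenchyme list 0.17, against 1.1 for red blood cells, 0.93 for immediate early genes and 0.80 for ganglion neurons. With medians in place of means the otic list spanned 0.16. The Notch, nuclear receptor and WNT ligand lists spanned 0.086, 0.086 and 0.087, less than the otic list. The median SD of the otic members was 0.19, above the 0.12 of genes above background. A span of at least 0.5 was found for 8 of the 56 lists: ganglion neuron, red blood cell, skeletal muscle, hindbrain, bone, liver (through Ttr), immediate early and sex-linked genes. With medians in place of means 6 lists reached it. The spans of the hindbrain, liver and sex-linked lists then changed by over 1.5 times. The variance was spread over all 4 components that 5 arrays allow. The first component of a principal component analysis held 32.0% of the variance of genes above background, the second 27.3%, the third 23.7% and the fourth 16.9%. Control 1 lay at 19.9 on the first, and the other 4 between -10.2 and 0.24.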

How the data were processed

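RNA of periotic tissue from 5 control embryos was measured on 5 of the 10 arrays. The deposited values are log2 signals, a scale taken from their range. Per the submitters' processing notes, the authors used RMA and Affymetrix Expression Console 1.1. RMA corrects background, equalises array distributions and summarises probes. The table held 35557 probe sets, of which the platform annotation listed 23410, 21789 with 1 symbol and 1621 with several. Gene ids matched 21698 of the 21789 to RefSeq (GRCm38.p6), and for 91 the annotation's own name was used. Of the 19938 genes, 999 had several probe sets, and the set of highest mean over the controls was used. Arrays have no read depth, and their number limits the precision.

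From these values, means, sample SDs, ranks, list medians and principal components of gene-centred values were computed in Python 3.11.15 (numpy 2.4.6, pandas 2.3.3). With 1 group there was no test. A list's array mean is the mean deviation of its members above background in some array. The background is the 95th percentile of nose receptor genes, and variable means an SD of at least 0.5. The 56 gene lists held 1232 genes, 1147 of them measured.

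The arrays, lists and naming rule were chosen with earlier results of these data known. The rule took the 20 genes of highest mean and of highest SD, from each list 3 by highest mean, 2 by highest SD and the lowest, the 10 highest means and 5 highest SDs over all transcription factor, ligand and matrix lists, and Tbx1, Pou3f4, Pax2, Sox9, Col2a1, Neurog1, Myod1 and Xist. Not all of the 321 genes it took are printed, and members of the lists outside the rule were added after their values were seen, as were 4 further lists. Predicted, RIKEN-type and small RNA genes were counted but not named. The steps were tested on simulated data. Alternatives were another background level, the mean of a gene's probe sets, other scaling, other measures of spread, filters on dim genes, and leaving out each array.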

Additional observations from a re-analysis of the deposited data

Results flagged for a closer look

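For 19 of 423 genes looked at and 2 of 60 lists, 1 control stood apart: its gap to the nearest other control was over 0.71 of the whole range. Chance gives this for about 1 group in 20, and 5.92% of the 14938 genes above background in some array had it. Neither 19 of 423 nor 2 of 60 is a larger share than these, so the number of flags is no finding by itself. The share of the range is given for each.

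Control 4 was the high one for En2 of the midbrain and hindbrain, at 7.05 against 4.68 to 5.12 in the others (0.813), and for the mean deviation of the neural tube and hindbrain list, at 0.37 against -0.16 to -0.044 (0.781). It was the low one for Twist1, a mesenchymal transcription factor, at 11.16 against 11.49 to 11.59 (0.766), and for Cer1 (0.723), which was below background.

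Control 3 was the low one for the limb and heart factor Tbx5, at 5.30 against 6.59 to 7.03 (0.746), for the basement membrane genes Lamb1, at 10.19 against 10.65 to 10.73 (0.839), and Nid1, at 9.81 against 10.05 to 10.14 (0.717), and for the mean of the pericyte and smooth muscle list, at -0.21 against 0.030 to 0.087 (0.806). It was the high one for Zic2, at 9.52 against 8.95 to 9.11 (0.718), for Cela1 (0.784), for the lens gene Crybb2 (0.761), for Col10a1 of hypertrophic cartilage (0.738) and for the myosin gene Myo15 (0.859). Col10a1 was at most 5.51 and Myo15 at most 5.65.

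Control 2 was the high one for Tmem267, at 9.29 against 7.64 to 7.97 (0.797), and for Dio3, at 6.07 against 5.86 to 5.92 (0.714). It was the low one for the Notch target Nrarp, at 7.54 against 8.04 to 8.16 (0.814). Control 1 was the high one for the endothelial gene Egfl7, at 8.61 against 8.11 to 8.16 (0.900), and for Wfdc2 (0.739), and the low one for Tmem72 (0.728) and for the meiotic gene Sycp1 (0.738), which was below background. Control 5 was the low one for the oocyte gene Gdf9, at 5.85 against 6.0 to 6.03 (0.836). No explanation was tested for any of these.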

How the results depend on the processing

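No paired analysis was possible because the results describe 1 group and come from no test. The count of genes above background, 13834, was 11578 with the 99th percentile of the nose receptor genes (6.23) and 16981 with the level of Y-linked genes in the arrays that read them low (4.265). Other scaling and the mean of probe sets gave 13776 to 13857. Leaving out each control gave 13872 to 13963. The 110 variable genes became 231 with an SD of at least 0.4 and 97 without sex-linked and immediate early genes, both alternatives chosen after seeing the data. The SD within arrays 1 to 3 and 4 to 5 gave 75. Other settings gave 111 to 123, and leaving out each control 104 to 132. The first component held 33.8% with arrays centred on their medians and 39.0% to 42.6% with 1 control left out, where 4 arrays allow fewer components. Of 56 lists, 38 had a median percentile above 50, and 36 to 39 under other settings, except 26 when only genes above background were ranked. A list span of at least 0.5 was found for 8 lists and for 6 to 8 under other summaries. Of the 20 strongest genes, 16 stayed with the mean of probe sets, Baiap2l1, Ppia, Rpl21 and Rps6 leaving, and 19 or 20 without any 1 control. Of the 20 most variable, 16 to 18 stayed without any 1 control. Leaving out 1 control moved some SDs by over 1.5 times. Without control 1, that of Usp17ld was 0.59 in place of 1.35 and that of Pou3f4 0.076 in place of 0.14. Without control 3, the SD of Meg3 was 0.55 in place of 1.51, of Myod1 0.060 in place of 0.19 and of Neurog1 0.11 in place of 0.22. Without control 4, the SD of En2 was 0.20 in place of 1.01, of Gpm6a 0.57 in place of 1.05, of Sox9 0.082 in place of 0.19 and of Tbx1 0.18 in place of 0.31. Without control 5, the SD of Cldn13 was 0.50 in place of 0.85, of Srsy 0.43 in place of 0.81 and of Pax2 0.12 in place of 0.19. The causes were not tested. The number of arrays, 5, limits every SD.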

Other observations

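Imprinted genes, of which only 1 parental copy is expressed, stood high in the signal range of control ear tissue. Of 26 genes looked up after the values were seen, 22 were measured, 21 were above background in all arrays (69.4% of all genes were) and 16 stood in the top 25% of signal. Their median percentile was 96.6. Besides Mest, Igf2, Cdkn1c and Dlk1, the growth inhibitor Grb10 read 12.33 ± 0.12, Nnat 11.98 ± 0.12, the zinc finger gene Peg3 11.63 ± 0.15, Ndn 11.50 ± 0.15, the retrotransposon-derived Peg10 11.40 ± 0.18, the growth factor receptor Igf2r 10.92 ± 0.31 and Plagl1 10.82 ± 0.24. The weakest was Rian at 5.11 ± 0.63. The list was picked with strong members in view, so its median is a description.

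Some variable genes stood in no list. Tmem267 gave 7.64, 9.29, 7.90, 7.91 and 7.97 in controls 1 to 5 and Slc7a11, a cystine transporter, 8.53, 7.14, 7.58, 7.45 and 7.70. Ublcp1, a phosphatase gene, gave 9.0, 7.77, 8.85, 8.91 and 8.41, low in control 2, and Trim12a 4.39, 3.66, 5.75, 5.09 and 5.10. Ppbp, a platelet chemokine, gave 8.26, 7.47, 9.11, 7.25 and 8.04, highest in control 3, where the red cell list did not peak. Sst, somatostatin, gave 6.84, 6.99, 7.24, 8.27 and 7.65 and Map2 of dendrites 8.36, 8.11, 8.60, 9.39 and 8.96, both highest in control 4.

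Among 12147 probe sets that the annotation does not list, 4365 (35.9%) were above background in all 5 controls, and 590 had an SD of at least 0.5 with at least 1 array above it. Among the 1621 with several symbols, 902 (55.6%) were above background and 98 were as variable. Of 999 genes with several probe sets, 417 had sets at least 1 log2 unit apart. No explanation was tested.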
